A study of Danio rerio with 94 samples.

Results

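Zebrafish embryos exposed to 1,4-dimethylnaphthalene were compared with vehicle controls. The comparison holds the 4 pools labelled with that chemical against the 5 control pools, out of 93 samples in the table of expression values. The pools were chosen by these labels alone. The study exposed embryos to naphthalene or to 1 of its alkylated relatives, 22 chemicals in all, and measured mRNA with TempO-Seq, in which paired probes that bind next to each other on an mRNA are joined and sequenced (here with the S1500+ zebrafish panel, whose table holds 3068 genes). It asked which genes respond to each chemical.

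All pools were whole wild-type embryos of the 5D strain. Exposed embryos were held in 20 µM 1,4-dimethylnaphthalene, dissolved in DMSO, from 6 to 24 hours post fertilization (hpf), in closed, rotating glass vials in the dark, then in clean medium until RNA was taken at 48 hpf. Control embryos went through the same steps with DMSO only. Each pool combined 6 embryos that looked normal, so a value is a mean over survivors without visible defects, and pools were picked partly on RNA yield and quality. The exposed pools, A, B, C and E, were made on day 2 of 2 exposure days. The controls were day 1 pools A and C and day 2 pools A, B and C, which the authors joined into a global control after removing the effect of day from the counts. Nothing in the labels ties a pool letter to a shared clutch. The p-values therefore measure the spread between pools, which may be partly technical.

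1,4-dimethylnaphthalene is a naphthalene with a methyl group on opposite positions of one ring, and is used to keep stored potatoes from sprouting. Cortisol acts through the glucocorticoid receptor, a transcription factor held ready by the chaperone HSP90 and its co-chaperones, and the receptor switches on genes such as fkbp5, klf9 and tsc22d3. Immediate early genes, such as the Fos, Nr4a and Egr families, are transcribed within minutes of a stimulus and encode short-lived transcription factors. Planar aromatic hydrocarbons can act through another receptor, the aryl hydrocarbon receptor, which in fish turns on cytochrome P450 genes of the CYP1 family.

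Depth overlapped between the groups. The exposed pools held 9.23 to 12.3 M reads and the control pools 8.14 to 12.7 M, against 7.21 to 16.5 M over all samples (exact two-sided permutation test of exposed against control, p = 0.651, smallest p possible 0.0159). Between 368 and 397 of the genes had no reads in an exposed pool, and between 362 and 457 in a control pool (exact permutation p = 0.508). A single read was worth 0.0763 to 0.105 CPM (reads scaled to a common library size) in the exposed pools and 0.0825 to 0.12 in the control pools. Values below are log2 CPM, on which a gene with no reads stands at -2.39. A prior count of 2 is part of every value, so the fold change of a gene with few reads is understated. Of 47 cell type markers looked for, 15 were on the panel and 11 had reads in all 9 pools, and the muscle gene tnnt3b, the skin keratin krt5 and the liver and yolk apolipoprotein apoa1a were detected in each. By limma with Benjamini-Hochberg adjustment, 0 of the 15 markers passed an adjusted p of 0.05, 5 had an unadjusted p under 0.05 (12.4% of all genes), and voom, a limma variant that models the precision of reads, also called 0. The pools did not overlap for 3 of the 15 markers (4.17% of all genes), all lower after exposure (2.51%), namely the haem synthesis gene alas2 (-0.81 on the log2 scale), the glial filament gene gfap (-0.36) and the pigment cell regulator mitfa (-2.43).

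A gene was called differentially expressed (a DEG) where limma's Benjamini-Hochberg adjusted p was at most 0.05 and the log2 fold change (log2FC, exposed minus control) was at least 1 in size. 1,4-dimethylnaphthalene gave 15 DEGs of 3068 genes, 0.489% of those tested. Of these 12 fell (0.391%) and 3 rose (0.0978%). The genes that fell included fkbp5, socs3a, nr4a3, syngr2b, fosab, bnip4, cyp1c1, cebpd, fgfbp2b, si:ch211-251j10.3 and klf11a, and those that rose were slc2a1b, ctss2.1 and cd37. A DEG against control need not be particular to this chemical. The control mean of slc2a1b was 1.43 log2 CPM, and the other chemicals of the study had means of 2.24 to 5.14. For ctss2.1 the control mean was 1.72 and the lowest other mean 2.52. For fgfbp2b the control mean was 6.98 and the highest other mean 6.59. The control mean also exceeded the highest other mean for fkbp5 (5.03 and 4.02), klf11a (7.73 and 7.15) and si:ch211-251j10.3 (5.24 and 4.94). It did so by less for nr4a3 (4.42 and 4.17), syngr2b (3.99 and 3.88) and socs3a (4.13 and 4.05). The same held for bnip4 (4.80 and 4.73) and cebpd (5.39 and 5.36). All chemical means thus lay on one side of the control mean for these genes. For cd37 the control mean and the lowest other mean were both -2.39. By contrast, the highest other mean exceeded the control mean for fosab (5.65 and 5.48) and cyp1c1 (4.75 and 4.43). Without the fold threshold 41 genes passed (1.34%), 12 higher and 29 lower, and 379 had an unadjusted p under 0.05 (12.4%), 158 higher (5.15%) and 221 lower (7.2%). The median log2FC over all genes was -0.02, and 366 genes had a log2FC of at least 1 in size, so most differences of that size did not pass. With only these 9 pools in the fit, where the spread of each gene is no longer shared with the other chemicals, 1 DEG was called, klf11a.

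**Figure D1:**
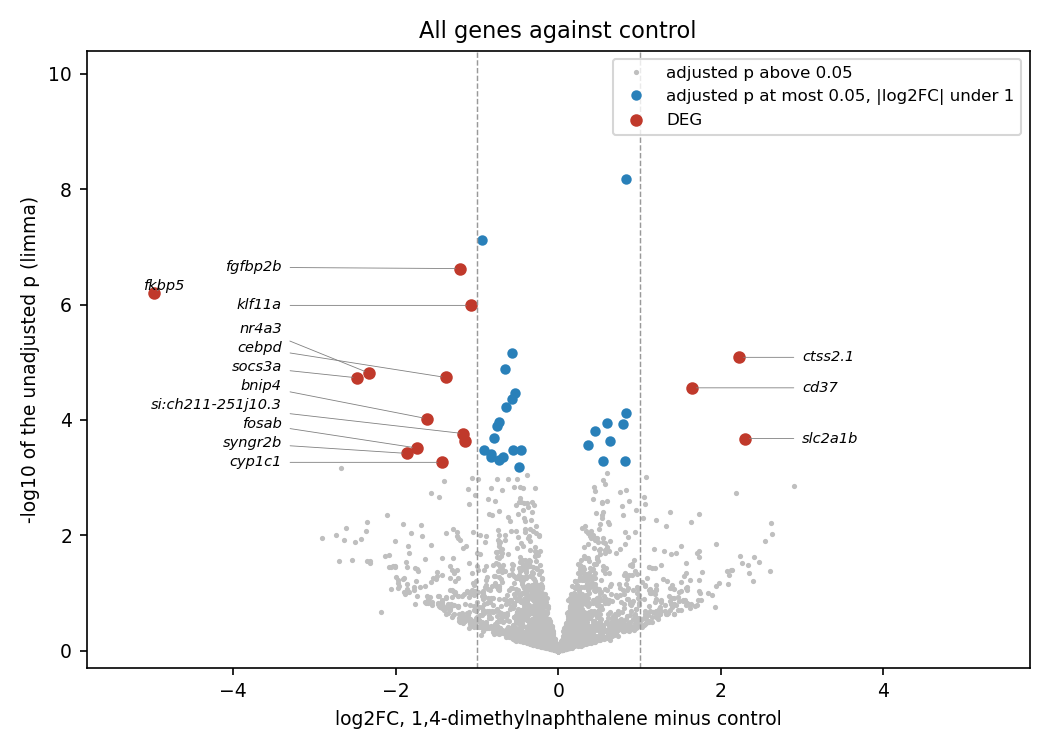
Each point is a gene, with its log2FC (1,4-dimethylnaphthalene minus control) on the horizontal axis and the negative log10 of the unadjusted limma p on the vertical axis. The 12 DEGs that fell lie on the left and the 3 that rose on the right, and fkbp5 lies farthest left of the DEGs, at -4.97.

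The largest decrease among DEGs was in fkbp5, an HSP90 co-chaperone that lowers the affinity of the glucocorticoid receptor for cortisol and is itself a target of the receptor. Its log2 CPM was 1.74, 2.03, -1.77 and -1.76 in exposed pools A, B, C and E. It was 3.99 and 5.48 in the day 1 control pools A and C, and 5.48, 5.07 and 5.15 in the day 2 control pools A, B and C. Every exposed pool lay below every control pool, and the exposed pools split into a pair with some expression and a pair with almost none. In reads, pools A, B, C and E held 30, 51, 1 and 1, against 131 to 463 in the controls. The means were 0.06 ± 2.11 (SD, n = 4) and 5.03 ± 0.61 (n = 5). By limma with Benjamini-Hochberg adjustment, the log2FC was -4.97 (SE 0.91, 95% confidence interval -6.79 to -3.16, adjusted p = 0.000486), a 31.4-fold lower level on this scale. In whole embryos, fewer cells that express a gene and less RNA per cell cannot be told apart, here or for any other gene below.

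Among the genes known to respond to glucocorticoids, 18 of the 27 on the list used here were measured. Of these, 3 were DEGs, all lower (fkbp5, socs3a and cebpd), against 0.391% of all genes. A further 2, hsd11b2 and bcl6aa, passed the adjusted p with smaller decreases, where 0.945% of all genes were lower at the adjusted p. By voom, 4 genes of the list passed the adjusted p, all lower. voom gave 10 DEGs over all genes, and its share of all genes at the adjusted p alone was not counted. The log2FC was negative for 14 of the 18, where 55.5% of all genes were negative, and the list's median was -0.66 (-0.71 with genes lacking reads in 1 group set to their bound). The earlier results of these data named several of these genes, so the list is no independent evidence of its direction. hsd11b2 encodes the enzyme that inactivates cortisol. Its log2 CPM was 7.41 to 7.79 in the exposed pools and 7.98 to 8.47 in the control pools, with no overlap (log2FC -0.65, SE 0.14, adjusted p = 0.00494). The highest mean with any other chemical was 8.04, below the control means of 8.24 on day 1 and 8.27 on day 2. klf9, a Krüppel-like transcription factor that responds directly to glucocorticoids, was at 1.05, 0.33, 0.01 and 0.72 in exposed pools A, B, C and E. The controls held 2.76 and 3.71 on day 1 and 3.03, 3.62 and 1.37 on day 2. These groups did not overlap either, but at 8 to 18 reads in the exposed pools and 29 to 115 in the controls the estimate was wide and missed the threshold (log2FC -2.37, 95% confidence interval -4.11 to -0.62, adjusted p = 0.195). tsc22d3, which encodes the glucocorticoid-induced leucine zipper, had a log2FC of -0.97 (SE 0.41, adjusted p = 0.283). The receptor gene itself, nr3c1, was at 0.08 (SE 0.36, adjusted p = 1). Of 6 genes of the stress axis and steroid synthesis, limma called 0, with 0 at an unadjusted p under 0.05 and 0 by voom.

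Several immediate early genes fell too, and socs3a and cebpd, just counted, are on both lists. Of 20 measured of 32 listed, 4 were DEGs, all lower (nr4a3, socs3a, fosab and cebpd), and btg2 and dusp1 also passed the adjusted p, where 0.391% of all genes were lower DEGs and 0.945% were lower at the adjusted p. The log2FC was negative for 18 of the 20, with a median of -0.76, and for 8 of them the exposed pools lay wholly below the controls (non-overlap in that direction held for 2.51% of all genes). By voom, 5 genes of the list passed the adjusted p, all lower, and here too the share of all genes by voom was not counted. Earlier results of these data had named fosab and cebpd, so this list too is no independent evidence of its direction.

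nr4a3 encodes an orphan nuclear receptor induced as an immediate early gene. Exposed pools A, B, C and E were at 1.64, 1.66, 2.51 and 2.54. Day 1 controls A and C were at 4.21 and 4.57, and day 2 controls A, B and C at 5.16, 3.48 and 4.68. The exposed pools were close together and all below the lowest control, and limma gave a log2FC of -2.33 (SE 0.50, adjusted p = 0.00521, 5.03-fold lower). socs3a encodes a suppressor of cytokine signalling that is induced through STAT3. It stood at -0.11, 2.51, 2.06 and 2.19 in exposed pools A, B, C and E, against 2.71 and 4.67 in the day 1 and 4.86, 4.57 and 3.87 in the day 2 controls. The groups did not overlap, although exposed pool B came close to day 1 control A, and exposed pool A stood far below the other exposed pools. The log2FC was -2.47 (SE 0.54, adjusted p = 0.00521). Without exposed pool A, and also with voom, the gene was no longer a DEG, with estimates between -2.83 and -1.88 over all alternatives.

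fosab encodes c-Fos, a subunit of the AP-1 transcription factor. It was at 4.18, 3.53, 3.50 and 3.76 in exposed pools A, B, C and E, at 4.66 and 5.44 in the day 1 controls and at 6.14, 5.99 and 5.19 in the day 2 controls. The groups did not overlap, and the day 2 controls stood farther from the exposed pools than did day 1 control A (log2FC -1.74, SE 0.46, adjusted p = 0.0318). Its call was lost in turn without exposed pool B, C or E, or day 2 control A or B. cebpd encodes C/EBP delta, a transcription factor of acute inflammation that glucocorticoids also induce. Its exposed pools were at 4.06, 3.92, 3.53 and 4.54, against 4.44 and 5.28 in the day 1 and 5.40, 5.69 and 6.14 in the day 2 controls. Exposed pool E overlapped day 1 control A, while all exposed pools lay below the day 2 controls. The log2FC was -1.38 (SE 0.30, adjusted p = 0.00521).

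Smaller decreases passed for a brake on proliferation and a brake on MAP kinases. btg2, which encodes an antiproliferative protein, fell by 0.57 on the log2 scale (adjusted p = 0.00355), with exposed pools at 8.76 to 9.16 and control pools at 9.22 to 9.75. dusp1, which encodes a phosphatase that switches off MAP kinases and responds to both stress and glucocorticoids, fell by 0.79 (SE 0.20, adjusted p = 0.0259). Its exposed pools were at 7.23 to 7.78 and its controls at 7.80 to 8.62, so that the highest exposed pool nearly met the lowest control. The highest mean of dusp1 with any other chemical was 8.12, below the control means of 8.17 on day 1 and 8.33 on day 2. For btg2 it was 9.37, between the control means of 9.33 on day 1 and 9.65 on day 2. ier2b had a log2FC of -1.02 without overlap but missed the threshold (SE 0.32, adjusted p = 0.0908).

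**Figure D2:**
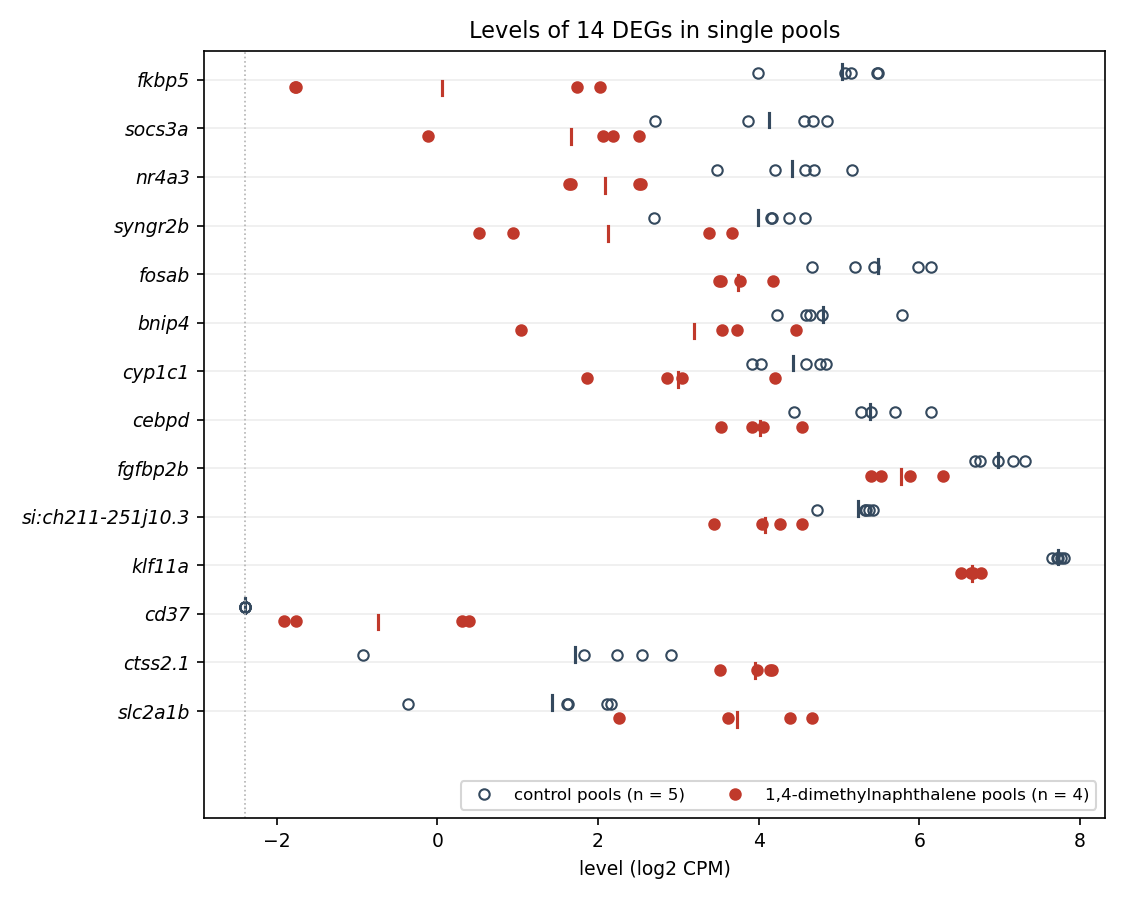
Log2 CPM of 14 DEGs in each pool, with the 4 exposed and 5 control pools as points, the means as vertical bars, and the dotted line at the value of a gene with no reads. Exposed pools of fkbp5 reach almost to that line in pools C and E, while the pools of klf11a sit close together in both groups, a clear distance apart.

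The Krüppel-like factors were represented by 4 genes of 22 listed, and klf11a was a DEG. klf11a encodes a zinc finger repressor of the same branch of the family as klf9. Its exposed pools were at 6.65, 6.77, 6.67 and 6.52, the day 1 controls at 7.76 and 7.65, and the day 2 controls at 7.80, 7.71 and 7.73. The SD was 0.10 in exposed and 0.06 in control pools, small beside the distance between the groups, and limma gave a log2FC of -1.08 (SE 0.20, 95% confidence interval -1.48 to -0.68, adjusted p = 0.000636). It was called in each of 20 alternatives tried. klf6a, at -0.29, also did not overlap but missed the threshold (adjusted p = 0.107), and klf11b, at -0.35, varied too much to place (SE 0.62).

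Fibroblast growth factor signalling and skeletal matrix lists each held the DEG fgfbp2b, and no other member of either was a DEG. fgfbp2b encodes a secreted protein that binds fibroblast growth factors. It was at 5.52, 5.39, 5.89 and 6.29 in exposed pools A, B, C and E, and at 7.32, 7.17, 6.98, 6.70 and 6.76 in the controls, in the same order of pools as above. No exposed pool reached the controls, although exposed pool E stood less than 1 log2 unit below the day 2 controls (log2FC -1.21, SE 0.21, adjusted p = 0.000244). The median log2FC of the 18 measured genes of fibroblast growth factor signalling was -0.03, and that of the 34 genes of cartilage, skeleton and neural crest was -0.14.

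The aryl hydrocarbon receptor list gave a single DEG, and it was lower, where 0.391% of all genes were lower DEGs. cyp1c1 encodes a monooxygenase of the fish CYP1 family. It was at 3.05, 1.86, 2.86 and 4.21 in exposed pools A, B, C and E, against 4.03 and 4.84 in the day 1 and 3.91, 4.59 and 4.76 in the day 2 controls. Exposed pool E lay among the controls, and the call (log2FC -1.43, SE 0.40, adjusted p = 0.0418) was lost in 12 of 20 alternatives. cyp1b1, another CYP1 monooxygenase, was at 3.78 to 4.36 in the exposed and 0.88 to 3.68 in the control pools, so that the pools did not overlap and lay higher after exposure, without passing (log2FC 1.20, SE 0.42, adjusted p = 0.155). cyp1a, the usual marker of receptor activity, was at 1.49, 0.57, 3.05 and 1.11 in exposed pools and ranged from -2.39 to 3.17 in controls (log2FC 0.54, SE 0.91, adjusted p = 0.885). The sign of the cyp1a difference depended on the control day, at -0.48 against day 2 and 2.08 against day 1 controls. The receptor genes ahr2 and ahr1b had a log2FC of -0.56 and -0.48 (adjusted p = 0.35 and 0.404). Of the 15 measured genes, 4 had a positive and 11 a negative log2FC, with a median of -0.06, where 55.5% of all genes were negative.

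The genes that rose have roles in glucose uptake, in lysosomes and in leukocytes. slc2a1b encodes a GLUT1 glucose transporter. Exposed pools A, B, C and E were at 2.26, 4.66, 4.39 and 3.61, the day 1 controls at 1.61 and 2.16, and the day 2 controls at 2.11, -0.36 and 1.62. Exposed pool A lay just above the highest control, and day 2 control B far below the other controls. The log2FC was 2.30 (SE 0.59, adjusted p = 0.0259). The call was lost with voom, with only day 2 pools in the fit, without exposed pool B, C or E, or without day 2 control B. No other gene of the 21 measured in the hypoxia and glycolysis list was a DEG, and the median there was -0.12.

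ctss2.1 encodes a cathepsin S, a cysteine protease of lysosomes that takes part in antigen presentation. Its exposed pools were at 4.14, 4.17, 3.97 and 3.51, against 2.90 and -0.92 in the day 1 and 1.83, 2.54 and 2.24 in the day 2 controls. All exposed pools lay above all controls, in a narrow band, and day 1 control C was far below the rest (log2FC 2.23, SE 0.46, adjusted p = 0.00361). ctsla, which encodes cathepsin L and is far more abundant, rose by less, with 12.39 to 12.59 in exposed and 11.56 to 12.16 in control pools (log2FC 0.63, SE 0.16, adjusted p = 0.0267). Of 17 measured genes of the lysosome list, 12 had a positive log2FC and the median was 0.37, where 55.5% of all genes had a negative log2FC.

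cd37 encodes a tetraspanin of leukocytes and had few reads. Exposed pools A, B, C and E held 10, 1, 11 and 1 reads, and no control pool held any. Against a floor of 3 reads over the control group this is at least a 9.13-fold higher level. That bound covers the counting error of the control group only and takes the exposed reads as they stand. limma called cd37 (adjusted p = 0.00712), but not without exposed pool A or without pool C. The fit averages its spread over groups that mostly had no reads. That p therefore does not measure the spread of the exposed pools (SD 1.26). The neutrophil peroxidase mpx had a log2FC of -0.47 and the macrophage gene mpeg1.1 of 0.44. The median over 48 immune genes was 0.00.

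The other DEGs described here belong to none of the lists used. bnip4 encodes a protein of the BNIP3 family of mitochondrial membrane proteins. It was at 4.46, 3.73, 3.54 and 1.04 in exposed pools and at 4.23, 4.59, 4.63, 5.79 and 4.79 in controls (log2FC -1.61, SE 0.39, adjusted p = 0.0172). Exposed pool A overlapped the controls and pool E was far below. The call was lost with voom, without pool E or without day 2 control B.

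syngr2b encodes a synaptogyrin, a membrane protein of small vesicles. Exposed pools A and B, at 3.66 and 3.38, lay among the controls, and pools C and E, at 0.95 and 0.52, well below them. The controls were at 4.58 and 2.70 on day 1 and at 4.16, 4.38 and 4.15 on day 2 (log2FC -1.86, SE 0.50, adjusted p = 0.0353), and the call was lost in 9 of 20 alternatives. si:ch211-251j10.3, for which no role is given here, was at 4.04, 4.54, 3.45 and 4.26 in exposed pools and at 5.42, 4.73, 5.34, 5.33 and 5.37 in controls (log2FC -1.17, SE 0.29, adjusted p = 0.0231). Its groups did not overlap, and the nearest pools were exposed pool B and day 1 control C. The call was lost in 6 of 20 alternatives, among them those without exposed pool A or C, day 1 control A, or day 2 control B or C.

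The pools of 11 of the 15 DEGs did not overlap between groups, where 4.17% of all genes did not. The DEGs were picked on the values of these same pools, so this count and those below are a description and no separate test. All 15 had the same sign of difference against the control pools of day 1 and against those of day 2, and 14 did not overlap the day 2 controls, which were exposed on the same day as the chemical, the exception being cyp1c1. Fewer control pools make non-overlap easier to reach. The share of all genes without overlap against the day 2 controls, at any fold, was not counted. For fkbp5 the difference was -5.18 against day 2 and -4.67 against day 1 controls, for nr4a3 -2.35 and -2.30, and for klf11a -1.10 and -1.05. It was less even for cebpd (-1.73 and -0.85), fosab (-2.03 and -1.31) and ctss2.1 (1.74 and 2.96).

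A further 26 genes passed the adjusted p with changes smaller than the fold threshold, and 21 of them did not overlap (4.17% of all genes). They too were picked on the values of these pools, so this count is no separate test. The smallest p of all belonged to ano9a, which encodes a member of the anoctamin family of membrane proteins. It was at 9.62, 9.40, 9.64 and 9.74 in the exposed and 8.61 to 8.95 in the control pools, a rise of 0.83 on the log2 scale (adjusted p = 2.07e-05). si:dkey-183i3.5, with no role given here, fell by 0.94 (adjusted p = 0.000115), from 9.27 to 9.56 in controls to 8.15 to 8.83 after exposure. nucb2a, which encodes the calcium-binding precursor of nesfatin, rose by 0.83 (adjusted p = 0.0146), with 9.62 to 10.05 in exposed and 8.62 to 9.27 in control pools. hspe1, which encodes the mitochondrial chaperonin HSP10, rose by 0.80 (SE 0.20, adjusted p = 0.018), its exposed pools at 6.11 to 6.43 and its controls at 5.17 to 6.06. The inducible chaperone gene hsp70l had a log2FC of 1.14 with a wide error (SE 0.69, adjusted p = 0.524). bcl6aa, which encodes a transcriptional repressor, fell by 0.76 (adjusted p = 0.0187), with 4.48 to 5.59 in exposed and 5.59 to 6.20 in control pools. Also called were the methionine cycle gene ahcy (0.37), the ribosome assembly gene rrs1 (0.59), the caveolar gene cav1 (-0.53) and the matrix proteoglycan gene aspn (-0.73). The other chemicals of the study shared some of these changes in the mean. Their lowest mean of ano9a was 9.04, above every control pool. For hspe1 it was 5.85, above the control means of 5.29 on day 1 and 5.64 on day 2. Their means of nucb2a (8.59 to 9.93) and si:dkey-183i3.5 (8.60 to 9.55) lay on both sides of the control means.

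No DEG was among the skeletal muscle or retina genes, though most members lay to one side. Over all genes, 55.5% had a negative log2FC. At an unadjusted limma p under 0.05, 5.15% of all genes were higher and 7.2% lower, which is the background for the counts below. Of 10 skeletal muscle genes all had a negative log2FC, with a median of -0.31, and limma called 0 (2 lower at an unadjusted p under 0.05, 0 by voom). The closest was the myosin light chain gene myl1 (log2FC -0.47, SE 0.14, adjusted p = 0.0775). Of 17 genes of photoreceptors and retina 14 were negative, with a median of -0.30, and limma called 0 (5 lower at an unadjusted p under 0.05, 0 by voom). Of 58 cell cycle and replication genes 42 were positive, with a median of 0.07, and limma called 0 (6 higher and 1 lower at an unadjusted p under 0.05, 0 by voom). The circadian clock list, of interest because klf9 and per genes cycle with the day, gave 0 of 14 (1 lower at an unadjusted p under 0.05, 0 by voom), with a median of -0.24. Its members nr1d1, a repressor of the clock, and per2 had a log2FC of -1.33 (SE 0.69, adjusted p = 0.42) and -0.67 (SE 0.58, adjusted p = 0.714). Of 31 genes of p53 signalling, DNA damage and apoptosis, limma called 0 at the adjusted p, with 3 higher and 3 lower at an unadjusted p under 0.05 and 0 by voom. For oxidative stress the median over 23 genes was -0.07, and limma called 0 (2 higher at an unadjusted p under 0.05, 0 by voom).

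**Figure D3:**
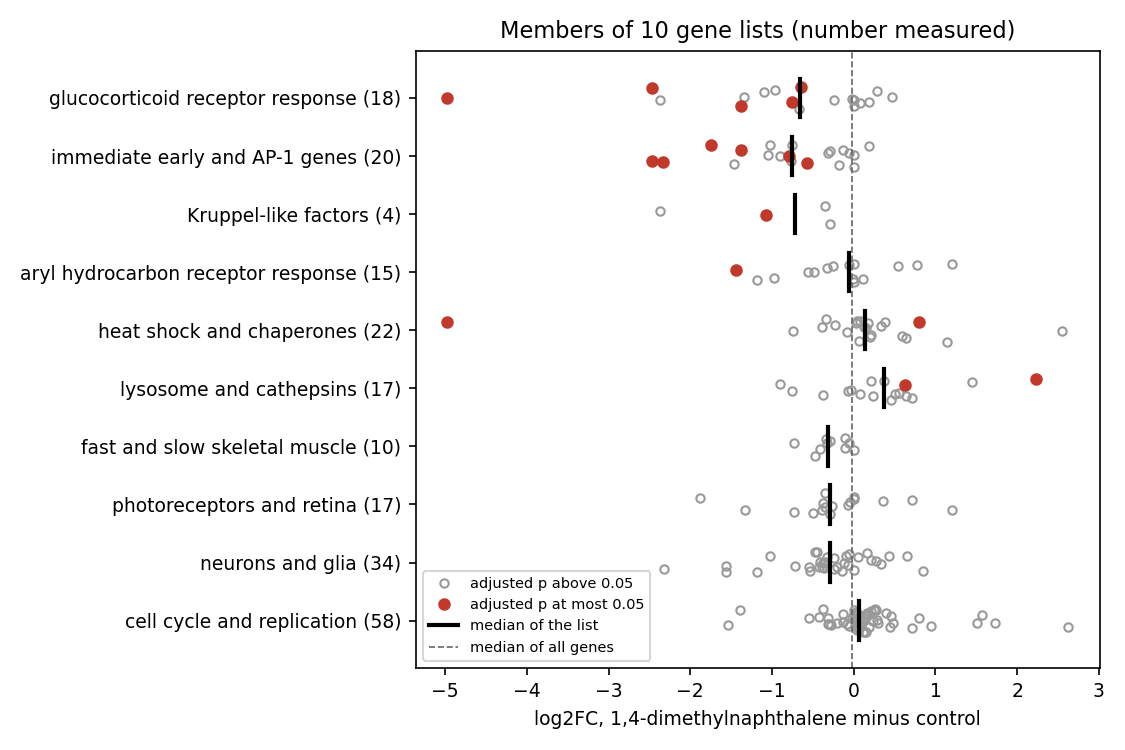
Log2FC of the measured genes of 10 lists, each dot a gene (red where the adjusted limma p is at most 0.05), with the list median as a black bar and the median of all genes as a dashed line. The medians of the immediate early (-0.76) and glucocorticoid (-0.66) lists lie left of the all-gene median of -0.02, and that of the lysosome list (0.37) lies right of it.

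Several genes with large differences and few reads missed the threshold although their pools separated. Over all genes, DEGs included, 44 (1.43%) had pools without overlap and a log2FC of at least 1 in size, 14 of them higher (0.456%) and 30 lower (0.978%). Some were at 0 reads in a whole group. sgk3, which encodes a serum- and glucocorticoid-regulated kinase family member, held 0 reads in the exposed pools and 1 to 45 in the control pools, 86 in sum, at least 24.1-fold lower. The adult globin gene hbba1 held 0 against 42 reads (at least 11.8-fold lower), although globin genes are near copies of each other and their probes may share reads. vps72b and slc25a13 held 76 and 66 reads in the exposed pools and 0 in the controls, at least 30.2-fold and at least 26.2-fold higher. Their limma adjusted p values were 0.166 and 0.0775. All these bounds cover the counting error of the group without reads only, and pools varied by more than counting error. Other chemicals of day 2 also stood above the value of a gene with no reads, with a median of their means of -0.65 for vps72b and -1.18 for slc25a13.

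The chemical was next compared with 6 relatives exposed on the same day at the same concentration and times. These were the isomers with the second methyl group at another position (1,3-, 1,5-, 1,6- and 1,7-dimethylnaphthalene), 1-methylnaphthalene, which lacks the second methyl group, and naphthalene, which has none. All 6 comparisons share the 4 pools of 1,4-dimethylnaphthalene with the comparison against control, so genes picked there as low are likely to be low here also, and their values are side by side with it rather than a separate test. DEGs over all genes numbered 10 against the 1,7 isomer (0.326%), 5 against 1-methylnaphthalene (0.163%), 1 against the 1,5 isomer (0.0326%), 1 against naphthalene (0.0326%) and 0 against the 1,3 and 1,6 isomers. For these last, an unadjusted limma p under 0.05 was reached by 201 and 263 genes, while voom gave 0 DEGs. With p-values adjusted over all 6 pairs and all genes together, the counts were 2, 3, 2, 6, 5 and 3 for the 1,3, 1,5, 1,6 and 1,7 isomers, 1-methylnaphthalene and naphthalene. Against the 1,3 and 1,6 isomers the genes were only cd37 and tapbpl. Both had few reads with 1,4-dimethylnaphthalene and none in any pool of those isomers. Their spread in the fit is averaged over groups that mostly had no reads, so their p-values do not measure the spread of the 1,4 pools. tapbpl also counts in all the other pairs, and cd37 in those with the 1,5 isomer and 1-methylnaphthalene.

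fkbp5 ranged widely among these relatives. Its mean log2 CPM was 0.06 with 1,4-dimethylnaphthalene, -0.15 with the 1,7 and 1.13 with the 1,3 isomer, 2.76 with the 1,6 and 3.01 with the 1,5 isomer, 2.68 with 1-methylnaphthalene and 4.02 with naphthalene. The 1,4 isomer was lower than naphthalene by 3.96 on the log2 scale (95% confidence interval of the difference -5.87 to -2.05, limma adjusted p = 0.0474 over the 6 pairs together and 0.0751 within the pair). From the 1,7 isomer it differed by 0.21 (-1.70 to 2.13) and from the 1,3 isomer by -1.07 (-2.98 to 0.85), and both intervals include 0. Against the 1,5 and 1,6 isomers and 1-methylnaphthalene the differences of -2.95, -2.70 and -2.62 missed the adjusted threshold over all genes (0.239, 0.295 and 0.317 over the 6 pairs).

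nr4a3 and socs3a were lower with the 1,4 isomer than with each of the 6 relatives in the mean, without passing over all genes. For nr4a3 the differences ran from -0.75 against the 1,7 isomer (-1.80 to 0.31) to -2.08 against the 1,6 isomer (-3.13 to -1.02, adjusted p over the 6 pairs 0.0763). For socs3a they ran from -0.79 against the 1,7 isomer (-1.92 to 0.34) to -2.17 against the 1,6 isomer (-3.30 to -1.03, adjusted p 0.101). klf11a hardly separated the chemicals. It differed by -0.04 from the 1,3 isomer (-0.46 to 0.39), by 0.06 from the 1,7 isomer (-0.36 to 0.48) and by -0.46 from naphthalene (-0.88 to -0.04, adjusted p 0.517).

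Some DEGs of the pairs, such as plod1a and ccnb1, were genes that 1,4-dimethylnaphthalene itself left near the control level, and others were not. plod1a, a lysyl hydroxylase that modifies collagen, was 3.18 log2 units higher than with the 1,7 isomer (SE 0.24, adjusted p = 2.26e-17), at a mean of 6.03 against 2.84, yet differed from control by -0.01 (SE 0.23). The mitotic cyclin gene ccnb1 was 1.18 higher than with the 1,7 isomer (adjusted p = 1.33e-05), and the mitochondrial NADPH enzyme gene nnt 1.16 higher (adjusted p = 0.000346). Lower than with the 1,7 isomer were bnip4 (-1.54, adjusted p = 0.0389), a DEG against control too, and the ribonucleotide reductase gene rrm2b (-1.59, adjusted p = 0.0265). Against 1-methylnaphthalene the muscle gene tnnt3b, a troponin T, was lower (difference -1.42, adjusted p = 0.0248). Against control its log2FC was -0.72 (SE 0.29, limma adjusted p = 0.244). The calponin gene cnn1b was also called (adjusted p = 0.0143), but it had no reads in any pool of the 1,4 isomer and a mean of -0.79 ± 1.53 (SD) with 1-methylnaphthalene, so no size is given. nucb2a, which was higher than control too, was 1.00 higher than with the 1,5 isomer (0.59 to 1.42, adjusted p = 0.0255). Against naphthalene the only DEG was ugt1a2, a glucuronosyltransferase of xenobiotic conjugation, at a mean of 4.32 against 2.74 (difference 1.58, 0.90 to 2.26, adjusted p = 0.0254). The control means of ugt1a2, 3.09 on day 1 and 3.78 on day 2, lay between these.

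**Figure D4:**
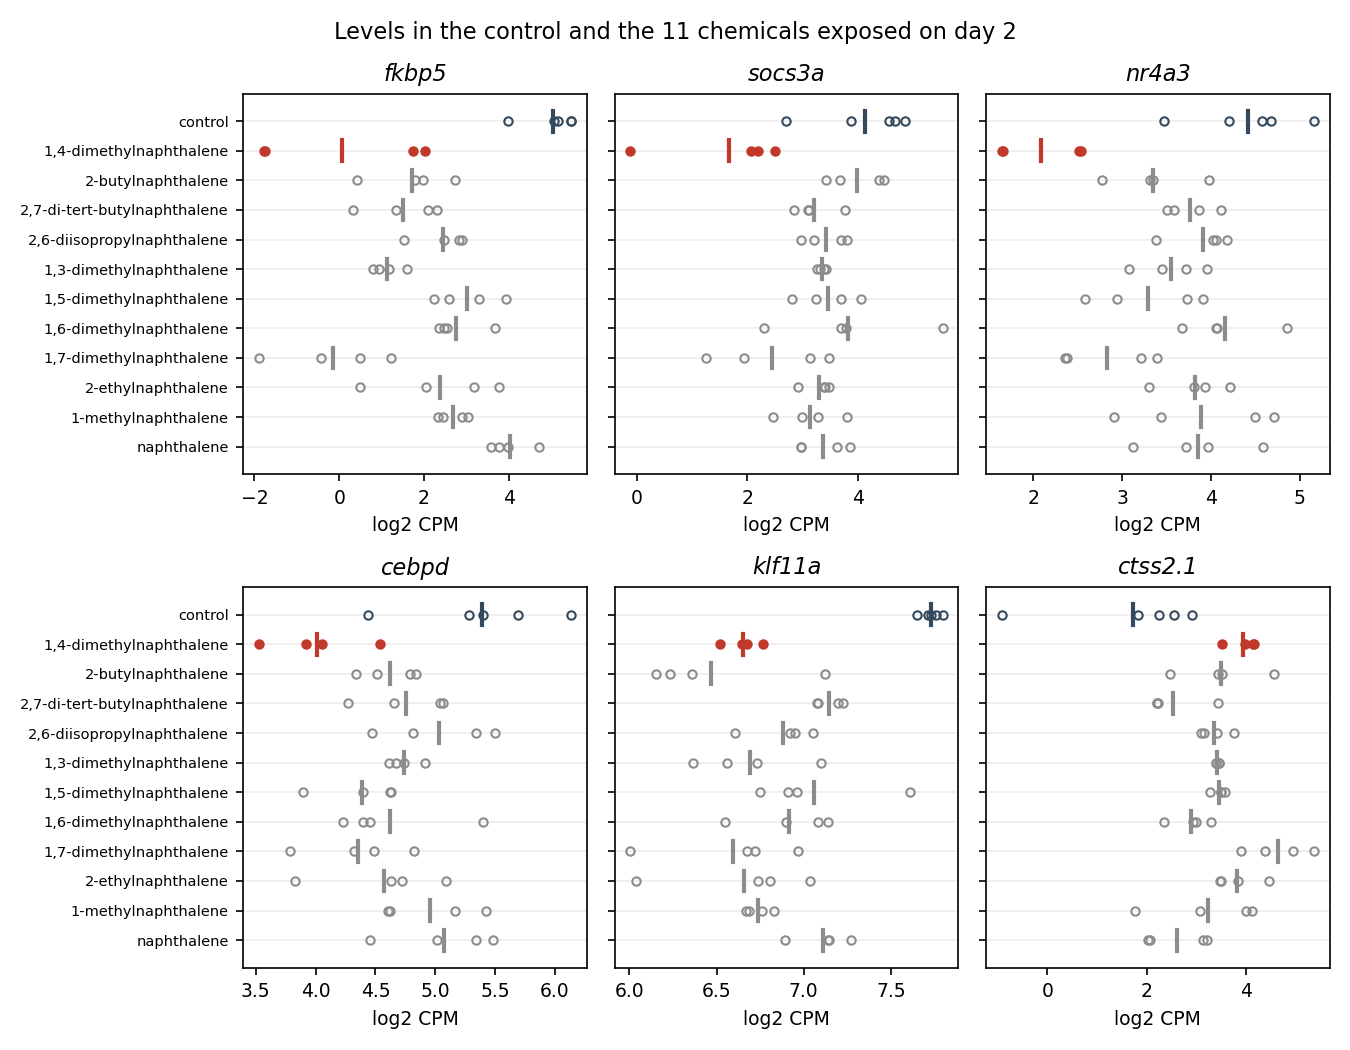
Log2 CPM of fkbp5, socs3a, nr4a3, cebpd, klf11a and ctss2.1 in the control pools and the pools of the 11 chemicals of day 2, points for pools and bars for means. 1,4-dimethylnaphthalene has the lowest mean of socs3a, nr4a3 and cebpd, and only the 1,7 isomer has a lower mean of fkbp5.

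Among the 11 chemicals of day 2, 7 of the 12 DEGs that fell had their lowest mean with 1,4-dimethylnaphthalene (among them socs3a, nr4a3, syngr2b, bnip4, cyp1c1 and cebpd), and cd37 had its highest. Since all were picked for low or high values in these very pools, the order is a description. For nr4a3 the mean was 2.09, below 2.83 to 4.17 in the others. For socs3a it was 1.66, below 2.45 to 3.99. For fkbp5 it was 0.06, within -0.15 to 4.02, and for ctss2.1 it was 3.95, within 2.52 to 4.65. Among all 22 chemicals, nr4a3, syngr2b, bnip4 and cyp1c1 still had their lowest mean with 1,4-dimethylnaphthalene. Of the day 1 chemicals, 1,8-dimethylnaphthalene had a lower socs3a mean (1.62) and 1-ethylnaphthalene a lower cebpd mean (3.77, against 4.01). Tested against the mean of the other 10 chemicals of day 2 (40 pools), a contrast added after the data were seen, 1,4-dimethylnaphthalene had 2 DEGs (0.0652%), both higher. They were tapbpl, which encodes a tapasin-related protein of antigen loading (adjusted p = 0.00118), and cd37 (1.54, adjusted p = 0.00152). The fit averages the spread of these genes over groups that mostly had no reads, which gave SEs of 0.23 and 0.29. The pools of 1,4-dimethylnaphthalene themselves had SDs of 1.50 and 1.26, a spread that these p-values do not measure. tapbpl held 9, 13, 0 and 0 reads in pools A, B, C and E of 1,4-dimethylnaphthalene and none with any other chemical of day 2, and day 1 control A held 11, so that its mean was -1.09 with the chemical and -0.90 in the day 1 controls. nr4a3 and socs3a missed the threshold (-1.55, adjusted p = 0.0674, and -1.69, adjusted p = 0.067), as did fkbp5 (-2.09, adjusted p = 0.228). Without exposed pool B this count was 14.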

How the data were processed

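RNA of whole embryos was measured by TempO-Seq in pools. The deposited values are log2 CPM: the authors counted probe reads with TempO-SeqR, added up probes of the same gene, removed the difference between exposure days with ComBat_seq (sva), scaled by upper quartiles and took logs with a prior count of 2 using edgeR, whose version is not given. The labels name GRCz11, and no coordinates are given here. The labels describe 94 samples and 93 have a column. The authors had dropped control pool B of day 1 after a PCA. A second deposited table of the authors holds their own log2 fold changes, statistics and p-values, and was not used. The number of columns of no sample was 0. One gene carries a number for a name and was kept but not named.

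The log2 values convert back to whole reads (100% within 0.02 reads), which gave the depths. They are reads after day correction, and floors cover the counting error of the group without reads only. No replicate pools agreed within counting error (the lowest chi-square was 48.1 times its degrees of freedom). In R 4.3.3, limma 3.58.1 was fitted to the deposited values of 93 samples in 23 groups without covariates, with Benjamini-Hochberg adjustment over 3068 genes. Thresholds were an adjusted p of 0.05 and a log2FC of 1 in size. Depth was tested by exact permutation (SciPy 1.17.1). The scripts were tested on simulated data. Gene lists (34 with measured genes) are described by counts and medians. Named genes were the DEGs, genes the study discusses, the 20 largest differences without overlap, the 10 smallest p among smaller changes, the DEGs of the 6 pairs, and in each list the DEGs and the 4 next by p. Cell type markers came from a separate list. The values of 1 DEG are not reported here, though it stands in the counts. The comparison, members and lists were chosen with earlier results of these data known. Alternatives were the prior count, centring, a filter of 1 CPM, limma with trend or robust settings, voom on the recovered reads, fewer groups or control days, a pool letter block, and leaving out each pool.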

Additional observations from a re-analysis of the deposited data

Results flagged for a closer look

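In 6 of 38 groups of values looked at, a single pool stood far from the others of its group. The rule flags about 1 in 20 groups of independent, normally distributed values. These groups share pools and mostly hold DEGs picked on those pools, so that rate is no background for the count. The control pools of cd37, all without reads, could not be flagged. For fkbp5, day 1 control A was at 3.99 log2 CPM, below the other controls. For socs3a, exposed pool A was at -0.11, below the other exposed pools. For slc2a1b, day 2 control B was at -0.36, and for ctss2.1, day 1 control C was at -0.92, each below the other controls. Day 1 control C was also lowest for syngr2b, at 2.70, and for si:ch211-251j10.3, at 4.73. Whether this pool differed in its handling was not tested.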

How the results depend on the processing

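Single genes were followed under alternatives only for the 15 DEGs, klf9 and nt5dc2. Of 339 such values, 276 stayed on their side of the thresholds, 63 no longer passed, and 0 reversed. klf9 and nt5dc2 were never DEGs and gave 20 of the unchanged values each. The 15 DEGs against control became 13 with samples centred on their medians, 16 with a prior count of 0.5, 15 with 4, 15 with a filter of 1 CPM, 16 with trend, 15 with robust settings, 10 with voom, 18 with day 2 controls only and 1 when the fit held the compared groups alone. Leaving out each pool gave 11 to 22. The DEGs that voom did not call were socs3a, slc2a1b, syngr2b, bnip4 and cyp1c1. fkbp5, nr4a3, ctss2.1, cebpd and fgfbp2b lost their call only with the compared groups alone (adjusted p 0.129, 0.114, 0.349, 0.233 and 0.129). Genes without overlap and with a log2FC of at least 1 numbered 94 with day 2 controls only, and 57 to 78 leaving out pools.

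For the pairs, the 1,3 isomer gave 3 DEGs with a prior count of 0.5 (0 to 2 leaving out pools, with 2 lacking 1,4 pool E). The 1,5 isomer gave 2 with centring, a prior count of 0.5 or voom, and 0 with the compared groups alone or the pool letter block (0 to 3, with 0 lacking 1,5 pool A, D or E and 3 lacking 1,4 pool B). The 1,6 isomer gave 1 with a prior count of 0.5 and 2 with the compared groups alone (0 to 3, with 3 lacking 1,4 pool E). The 1,7 isomer gave 3 with the compared groups alone (5 to 27, with 27 lacking 1,7 pool E and 5 lacking its pool B or C). 1-methylnaphthalene gave 3 with centring, 2 with a prior count of 4, the compared groups alone, trend or voom, and 1 with the filter (0 to 4, with 0 lacking 1,4 pool A or 1-methyl pool A). Naphthalene gave 0 with voom (0 to 5, with 0 lacking 1,4 pool A or naphthalene pool A, B or C and 5 lacking 1,4 pool B). The mean of the other day 2 chemicals gave 4 with a prior count of 0.5 or voom, 1 with 4, 0 with the filter and 7 with the compared groups alone (2 to 14, with 14 lacking 1,4 pool B). The causes were not tested.

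Pool letters were treated as a block only here. The correlations of same-letter deviations between exposed and day 2 control pools were 0.0126, -0.00863 and 0.0365, so no pairing by letter was seen. They were taken over all genes, and counting error in genes with few reads lowers them, so they cannot exclude pairing. With the replicate block, DEGs were 16 against control, 0, 0, 0 and 10 against the 1,3, 1,5, 1,6 and 1,7 isomers, 5 against 1-methylnaphthalene, 1 against naphthalene and 2 against the other day 2 chemicals. Genes with a few reads are limited by depth, since a single read is worth up to 0.12 CPM.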

Other observations

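The exposed pools did not respond evenly. Pools C and E held almost no fkbp5 (1 read each), while pools A and B held 30 and 51, and the same pools C and E were the low ones for syngr2b (0.95 and 0.52 against 3.66 and 3.38 log2 CPM). For bnip4 pool E alone was low (1.04), and for socs3a pool A (-0.11). klf11a did not show such a split, with 6.52 to 6.77 over the 4 pools. These genes were set beside each other after their values were seen.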
